A study of Homo sapiens with 6 samples.

Results

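The SLC16 family of monocarboxylate transporters and the 2 membrane proteins that escort them were followed in U87 cells with and without silencing of Caspase-8. The set holds 9 genes of the 23290 in the deposited table: the transporters SLC16A1, SLC16A3, SLC16A4, SLC16A5, SLC16A6, SLC16A7 and SLC16A9, and the escorts BSG and EMB. They were taken by gene symbol, and SLC16A6 was selected on its measured fall in these same 6 libraries, one of the largest, so its values, standard error and interval are given as a description, with no p-value. SLC16A6 was 8.77-fold lower with Caspase-8 silenced. The escort BSG was 1.23-fold higher, a call near the threshold that was lost when any 1 library was left out. The abundant lactate carriers SLC16A1 and SLC16A3 were listed at 1.34 and 1.49 times the control mean, and neither passed the main test across all genes. Both passed with the replicate number as a block in the fit, and SLC16A1 also with library 1 of the silenced group left out.

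Monocarboxylate transporters are membrane proteins that carry small organic acids such as lactate, pyruvate and ketone bodies. The products of SLC16A1 (MCT1), SLC16A7 (MCT2) and SLC16A3 (MCT4) move lactate together with a proton, MCT4 being best known for lactate export from glycolytic cells. They reach the cell surface only with a partner of the immunoglobulin superfamily, basigin (BSG, CD147) for MCT1 and MCT4 and embigin (EMB) for MCT2. The product of SLC16A6 (MCT7) is less well characterised and has been linked to the transport of ketone bodies and taurine, and that of SLC16A9 (MCT9) to carnitine. Glioblastoma cells ferment glucose to lactate and depend on its export to hold their internal pH.

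The family shares a short motif just before the first membrane-spanning helix, an acidic residue followed by glycine, glycine or serine, tryptophan, a small residue and tryptophan. A match to it was found near the start of the protein in each of the 7 transporters and in neither BSG nor EMB. Later parts of the proteins were not searched. The search also allowed phenylalanine in place of the first tryptophan, which no match used. The stretches below are the coding-strand bases around the motif, 5′ to 3′, from GENCODE 29 transcripts on build GRCh38, and the capitals mark the 18 bases of the motif. They are shown because they place SLC16A6 within the family by sequence, and each lies within 1 coding exon.
SLC16A6: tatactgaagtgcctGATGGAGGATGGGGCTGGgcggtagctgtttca
SLC16A1: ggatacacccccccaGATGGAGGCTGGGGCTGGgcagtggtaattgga
SLC16A3: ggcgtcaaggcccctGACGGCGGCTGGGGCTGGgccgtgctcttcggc
SLC16A7: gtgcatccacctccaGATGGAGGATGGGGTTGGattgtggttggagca
SLC16A4: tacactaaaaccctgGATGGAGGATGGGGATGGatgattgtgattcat
SLC16A5: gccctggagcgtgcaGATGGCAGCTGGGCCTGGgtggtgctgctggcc
SLC16A9: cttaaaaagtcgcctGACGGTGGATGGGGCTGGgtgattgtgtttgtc

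The SLC16A6 stretch lies at chr17:68278231-68278278 on the minus strand. Also on the minus strand are those of SLC16A1 (chr1:112929234-112929281), SLC16A4 (chr1:110389246-110389293) and SLC16A9 (chr10:59684238-59684285). On the plus strand are those of SLC16A3 (chr17:82236042-82236089), SLC16A5 (chr17:75093646-75093693) and SLC16A7 (chr12:59704829-59704876). Within the motif, SLC16A1, SLC16A4 and SLC16A7 share 17 of its 18 bases, SLC16A9 shares 16, SLC16A3 shares 15 and SLC16A5 shares 14. Outside the motif the genes are distinct at the scale of a sequencing read: no transporter or escort of the set has a stretch of 50 transcript bases in common with another.

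U87 is an established human glioblastoma line. All 6 libraries came from U87 grown in DMEM with 10% serum and infected with a retrovirus, which carried a scramble sequence in the 3 control libraries (shCTR) and a sequence silencing Caspase-8, the initiator protease of death receptor signalling, in the other 3 (shC8). The sources used here give no hairpin sequence, no number of clones or infections and no time after infection. The 3 libraries of a group are called biological replicates by the submitters, with no word on separate cultures, and p-values therefore cover the spread among these libraries, which may be technical.

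CASP8 was 15.1, 14.9 and 13.4 FPKM (fragments scaled by transcript length and by the library's mapped fragments) in shCTR and 4.39, 4.46 and 4.44 FPKM in shC8, so the libraries follow their labels. Between 16326 and 17024 genes were above 0 in a library, the columns summed to between 489055 and 516634 FPKM, and absolute depth is unknown. Of 10 glial and glioblastoma markers, VIM, CD44, TNC, NES and SOX9 had a mean of at least 1 FPKM, and GFAP, S100B, OLIG2, SOX2 and AQP4, which was at 0 in every library, did not. Summed immune markers lay between 0.0435 and 0.326 FPKM, with 3 of 5 at 0 in every library, and summed endothelial markers between 0.109 and 0.260 FPKM. Summed epithelial markers lay between 0.820 and 1.43 FPKM, and the neuronal markers SNAP25 and SYT1 kept the neuronal sum between 17.0 and 20.9 FPKM. In RNA from whole cultures, fewer expressing cells and less RNA per cell cannot be told apart.

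**Figure D1:**
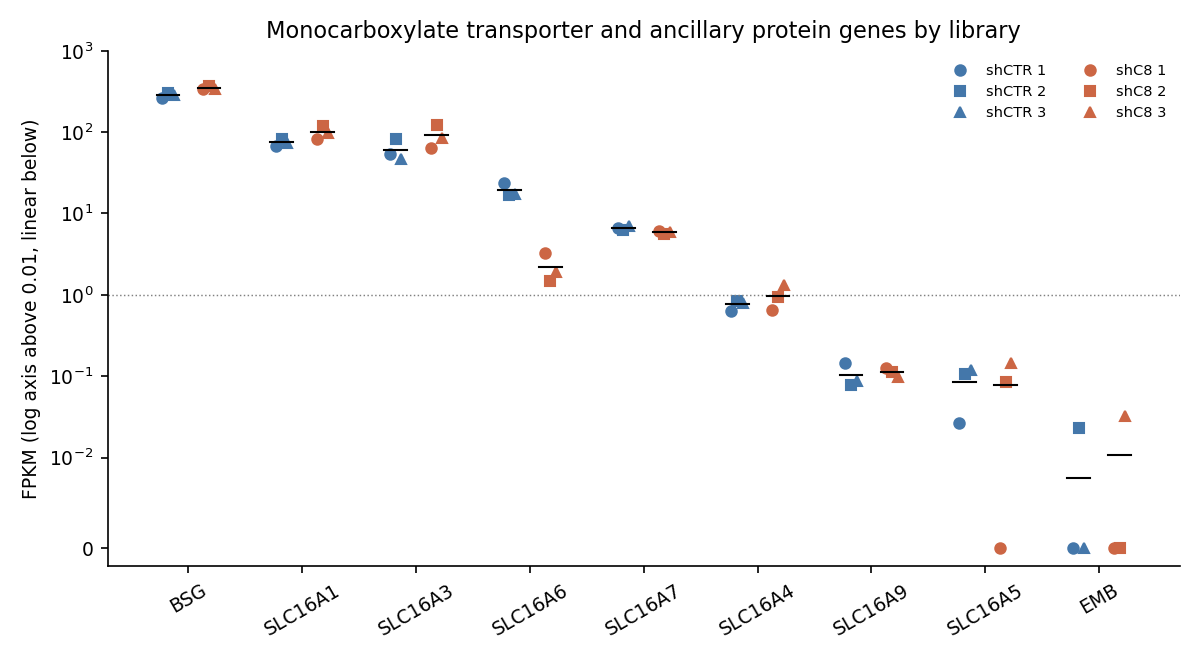
FPKM of the 9 genes in each library (axis logarithmic above 0.01 FPKM and linear below; blue shCTR, orange shC8; circles, squares and triangles for libraries 1, 2 and 3; short black lines for group means; dotted line at the filter of 1 FPKM). The SLC16A6 values of shC8, 1.48 to 3.29 FPKM, sit below those of shCTR, 17.1 to 23.8 FPKM, while BSG, SLC16A1 and SLC16A3 stay at the top and SLC16A4, SLC16A5, SLC16A9 and EMB at the bottom of the range.

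SLC16A6 was listed at 23.8, 17.1 and 17.5 FPKM in the shCTR libraries, against 3.29, 1.48 and 1.90 FPKM in shC8. Every shC8 library lay below every shCTR library, and library 1 was the highest of both groups. The means were 19.5 ± 3.77 FPKM (SD, n = 3) in shCTR and 2.22 ± 0.948 FPKM (SD, n = 3) in shC8, which left 11.4% of the control level. On the log2(FPKM + 1) scale, which understates changes of low values, the difference was -2.69 (SE 0.21, 95% confidence interval -3.19 to -2.20).

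The same-numbered libraries differed by -2.53, -2.87 and -2.67 on that scale, and over all 14 alternative settings the difference ran from -3.14 to -2.52. SLC16A6 was selected on its place among the largest falls, which is therefore no result. Its neighbours there were MMP3, a matrix metalloproteinase, at -2.84, and EREG, an EGF receptor ligand, at -2.38. CASP8 itself, the targeted gene, differed by -1.51 on the same scale.

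SLC16A6 spans chr17:68267026-68291267 on the minus strand (GRCh38, ENSG00000108932) and lies wholly inside the span of ARSG, a lysosomal sulfatase gene on the plus strand. The exons of the pair share 144 bases, 3.55% of the exon bases of SLC16A6. The libraries were stranded per the labels' protocols, but the sources used here do not say whether counting used strand. ARSG was listed at 0.476, 0.472 and 0.251 FPKM in the shCTR libraries, against 0.202, 0.143 and 0.1001 FPKM in shC8. The ARSG values also did not overlap between groups, but they were under the filter of a mean of 1 FPKM and were not tested, and they came to 1.44% to 2.76% of the SLC16A6 value in shCTR and 5.28% to 9.69% in shC8. SLC16A6 also shares 356 of its 4226 stretches of 50 transcript bases with its pseudogene SLC16A6P1, so a part of its level may be split with that copy.

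SLC16A1, the widely expressed lactate and pyruvate carrier, was listed at 68.5, 81.6 and 73.7 FPKM in the shCTR libraries, against 83.3, 118 and 98.1 FPKM in shC8. The lowest shC8 library lay just above the highest shCTR library, and library 2 was the highest in both groups. The means were 74.6 ± 6.61 FPKM in shCTR and 99.96 ± 17.6 FPKM in shC8 (SD, n = 3 each), a log2 difference of 0.41 (SE 0.13). The difference did not pass the test (limma adjusted p = 0.0826). It passed with the replicate number as a block (limma adjusted p = 0.00757) and without shC8 1 (limma adjusted p = 0.0340).

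SLC16A3, the carrier known for lactate export, was listed at 53.9, 82.2 and 47.2 FPKM in the shCTR libraries, against 64.0, 124 and 85.1 FPKM in shC8. The groups overlapped, since shCTR 2 lay above shC8 1, and library 2 was again the highest in both. The means were 61.1 ± 18.6 FPKM and 90.9 ± 30.3 FPKM (SD, n = 3 each), and the log2 difference of 0.55 (SE 0.27) did not pass (limma adjusted p = 0.215). Within same-numbered libraries the difference was 0.24, 0.58 and 0.84, higher in shC8 in all 3, and it passed with the replicate block (limma adjusted p = 0.0174). The numbers in the column names fall into 2 ranges of unstated meaning, unbalanced between the groups. The lower holds shCTR 1, shCTR 3 and shC8 1, and the upper shCTR 2, shC8 2 and shC8 3. Within them the SLC16A3 difference was 0.34 and 0.32, both below the 0.55 over all libraries. With the range as a term SLC16A3 differed by 0.33 and SLC16A1 by 0.31, and neither passed (limma adjusted p = 0.184 and 0.0773). In total, 482 exon bases of SLC16A3 are shared with CSNK1D on the opposite strand.

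SLC16A7, the high-affinity lactate and pyruvate carrier, was listed at 6.57, 6.27 and 7.01 FPKM in the shCTR libraries, against 6.08, 5.67 and 5.90 FPKM in shC8. All 3 shC8 libraries lay below the lowest shCTR library, by a narrow margin. The log2 difference of -0.14 (SE 0.07, 95% confidence interval -0.31 to 0.02) did not pass the test (limma adjusted p = 0.221), nor did it with the replicate block (limma adjusted p = 0.135). SLC16A6 stood at 2.49 to 3.63 times the FPKM of SLC16A7 in the shCTR libraries and at 0.260 to 0.541 times in the shC8 libraries, that is, above it in every shCTR library and below it in every shC8 library.

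The other 3 transporters were barely detected. SLC16A4, whose substrates are poorly defined, was listed at 0.640, 0.848 and 0.800 FPKM in the shCTR libraries, against 0.657, 0.935 and 1.31 FPKM in shC8, with overlapping groups. SLC16A9 lay between 0.0787 and 0.144 FPKM and SLC16A5, whose product is known for carrying drugs, between 0 and 0.146 FPKM, and the groups of both overlapped. These genes were under the filter, and in a fit without a filter none passed, SLC16A4 coming lowest of them (log2 difference 0.15, limma adjusted p = 0.562). No difference was detectable at these levels.

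BSG, which escorts MCT1 and MCT4 to the membrane, was the most abundant gene of the set, at 266, 300 and 290 FPKM in the shCTR libraries and 343, 367 and 338 FPKM in shC8. Every shC8 library lay above every shCTR library. The means were 285 ± 17.6 FPKM and 350 ± 15.5 FPKM (SD, n = 3 each), and BSG rose by 0.29 on the log2 scale (SE 0.08, 95% confidence interval 0.12 to 0.47, limma adjusted p = 0.0459). The call lay close to the threshold: it was lost when any 1 of the 6 libraries was left out (limma adjusted p from 0.0579 without shC8 1 to 0.132 without shC8 2) and under both other scalings, quantile normalization (0.0517) and median-of-ratios scaling (0.0766). BSG was higher in shC8 under all 14 alternatives, by 0.24 to 0.33.

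EMB, the escort of MCT2, was listed at 0, 0.0233 and 0 FPKM in the shCTR libraries, against 0, 0 and 0.0324 FPKM in shC8. It was thus listed at 0 in 4 of 6 libraries, and no fold is given. Of its 5254 stretches of 50 transcript bases, 1048 also occur in the pseudogene EMBP1, so its level is uncertain. SLC16A7 thus stood at 5.67 FPKM or more in libraries where EMB was at or near 0.

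**Figure D2:**
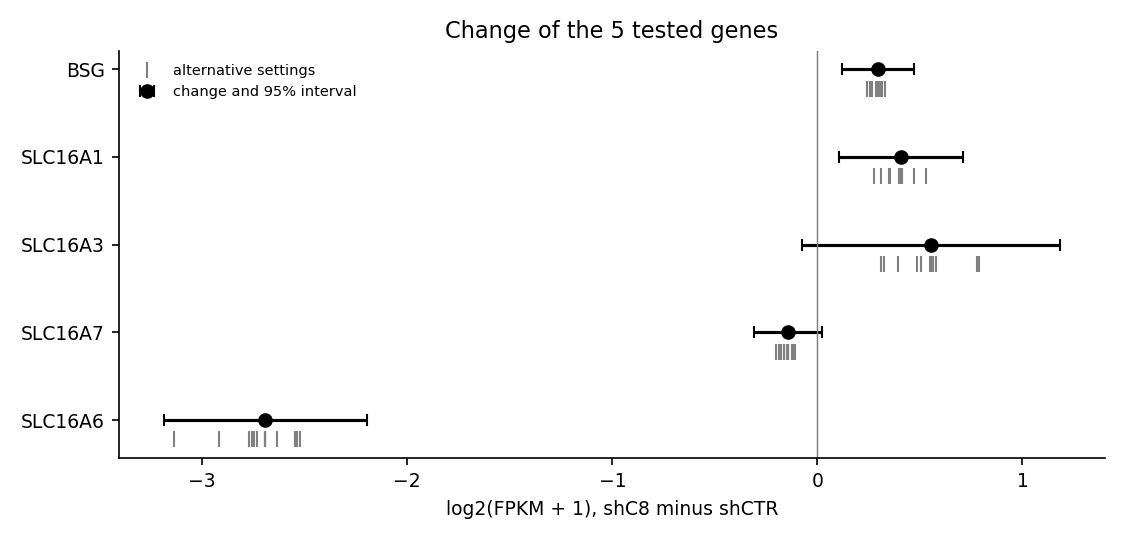
Difference in log2(FPKM + 1), shC8 minus shCTR, for the 5 genes of the set that were tested, with bars for the 95% confidence interval and grey ticks for the 14 alternative settings. SLC16A6 stands apart at -2.69, and the intervals of SLC16A3 and SLC16A7 cross 0.

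Of the 9 genes, 5 had a mean of at least 1 FPKM and were tested, and all 5 had group means above 1 FPKM in both groups. Of these 5, BSG was called higher, SLC16A6 was in the count of lower genes by its choice, and the other 3 did not pass, where 12.1% of the 11598 tested genes were called in either direction, 7.14% higher and 4.94% lower. With the replicate block 4 of the 5 were called, SLC16A7 being the exception, and so were 26.6% of all tested genes. The groups did not overlap for SLC16A1, SLC16A6, SLC16A7 and BSG, against 34.8% of all tested genes. The median difference of the 5 was 0.29, and that of all tested genes 0.04 on the log2 scale. Nothing is read from these counts for SLC16A6, since its choice used the same contrast.

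FPKM is scaled by transcript length, but annotated transcripts differ between genes and SLC16A6 may share reads with its pseudogene. The 14 SLC16 genes in the table can therefore be compared by level only roughly. Their FPKM summed to 170, 205 and 163 in shCTR and to 179, 273 and 215 in shC8, so the groups overlapped in the total. SLC16A6 made up 14.0%, 8.34% and 10.7% of that sum in shCTR and 1.84%, 0.541% and 0.881% in shC8. SLC16A1 and SLC16A3 were the leading transporters in all 6 libraries, and SLC16A6 was the third in shCTR. The ratio of SLC16A1 to SLC16A3 was 1.27, 0.993 and 1.56 in shCTR and 1.30, 0.957 and 1.15 in shC8, which overlap. BSG stood at 1.83 to 2.40 times the sum of SLC16A1 and SLC16A3 in shCTR and at 1.52 to 2.33 times in shC8.

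**Figure D3:**
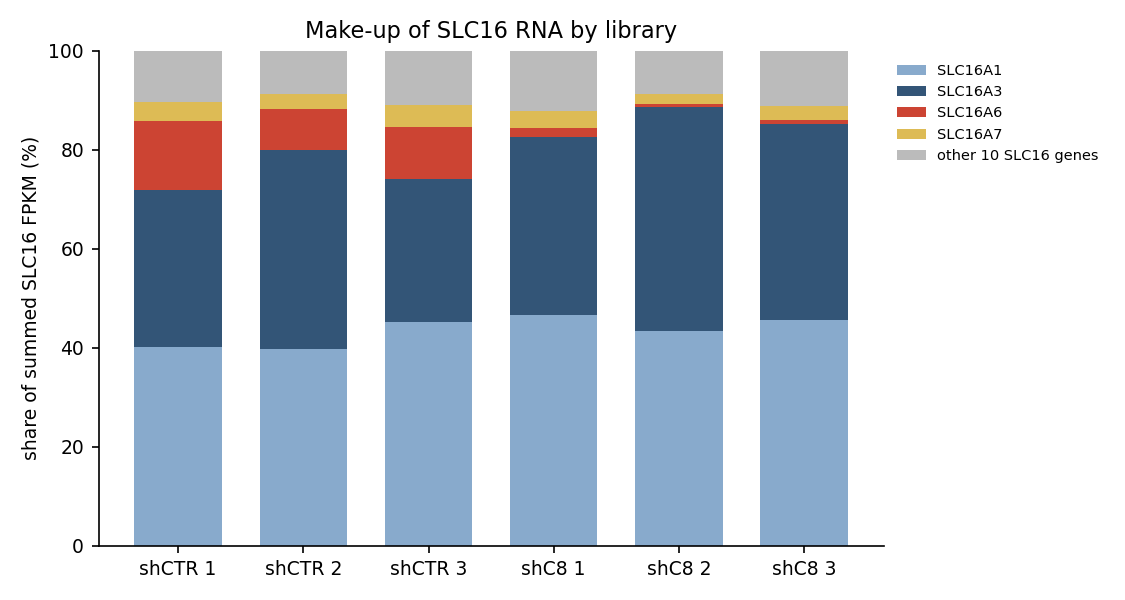
Share of the summed FPKM of the 14 SLC16 genes in percent, for each library, with SLC16A1, SLC16A3, SLC16A6 and SLC16A7 in colour and the other 10 genes in grey. SLC16A6 holds 8.34% to 14.0% in the shCTR libraries and 0.541% to 1.84% in the shC8 libraries, while SLC16A1 and SLC16A3 hold most of the sum in every library.

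SLC16A3 and SLC16A1 were both highest in library 2 of each group, so the genes with the pattern most like SLC16A3 were listed by Pearson's correlation of log2(FPKM + 1) over the 6 libraries. These genes were chosen after their values were seen, and the 6 points share 2 groups and 3 replicate numbers. The 5 most alike of 11597 genes were SPAG4 (r = 0.999), ALDOC (0.998), PFKFB4 (0.997), LOC154761 (0.997) and ALDOA (0.994). ALDOA and ALDOC encode glycolytic aldolases and PFKFB4 a regulator of glycolytic flux. The acid-handling enzyme CA9, the glucose transporter SLC2A1 and the lactate dehydrogenase LDHA stood at r = 0.993, 0.988 and 0.960. PDK1 stood at 0.933, SLC16A1 at 0.924 and BSG at 0.765. CA9, SLC2A1, PDK1, LDHA and SLC16A3 are textbook targets of the hypoxia-inducible factor, but only a selection of them. Others need not share the pattern. HK2 was at 35.6, 34.0 and 34.0 FPKM in shCTR and 29.4, 33.0 and 33.1 FPKM in shC8, with library 2 highest in neither group. CA12 was highest in library 2 of each group but had a log2 difference of -0.09.

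CA9, the hypoxia target best known as a marker of low oxygen, was listed at 14.6, 35.0 and 9.65 FPKM in the shCTR libraries, against 21.9, 67.6 and 33.2 FPKM in shC8. Library 2 was the highest in both groups and the groups overlapped, as they did for SLC16A3. The log2 difference of CA9 was 1.05 (SE 0.51), which did not pass (limma adjusted p = 0.213) and did with the replicate block (limma adjusted p = 0.0157). Within the lower and the upper range of column numbers the CA9 difference was 0.83 and 0.43. The part of this shared pattern in the difference of SLC16A3 was not tested.

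**Figure D4:**
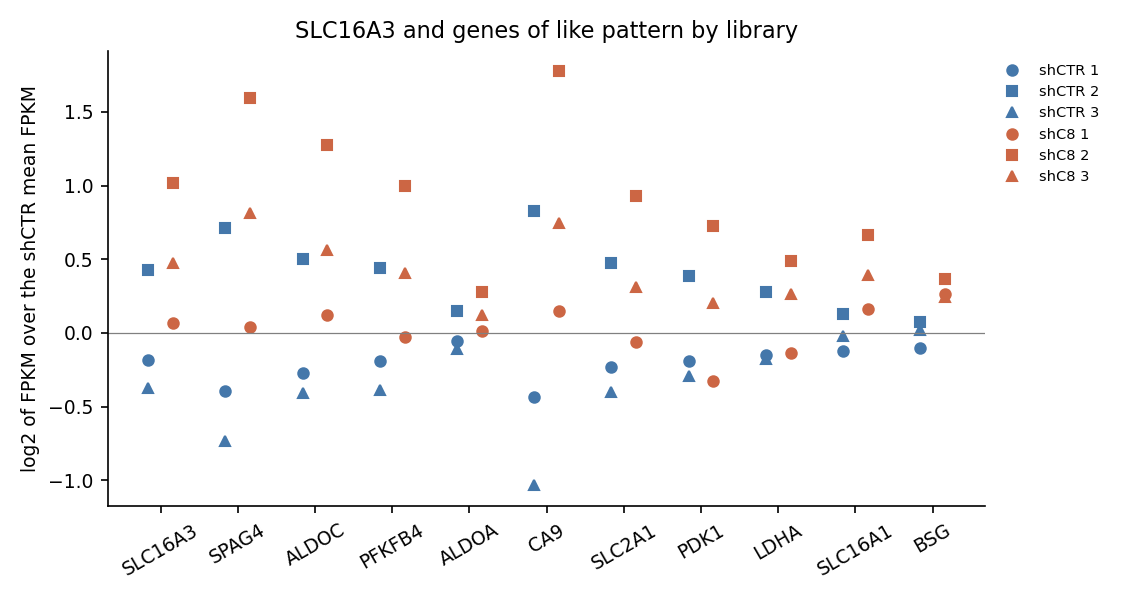
log2 of each library's FPKM over the shCTR mean for SLC16A3, genes of like pattern, SLC16A1 and BSG (blue shCTR, orange shC8; circles, squares and triangles for libraries 1, 2 and 3). The squares, library 2, are the highest of their group for every gene drawn, and the groups of SLC16A3 and CA9 overlap.

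The word ACGTG, 1 form of the core of the hypoxia response element, was searched in 300-base promoter windows from RefSeq (250 bases before to 50 after a start, GRCh38.p14). Both strands were read, as ACGTG and CACGT, and the form GCGTG was not searched. Windows were held for 5 of the 9 genes, BSG, SLC16A3, SLC16A4, SLC16A7 and SLC16A9, and the word occurred in 21.4% of 35116 windows of all genes. SLC16A3 had it in 1 of its 5 windows, BSG and SLC16A9 in 1 of 2 each, and SLC16A4 and SLC16A7 in none. The SLC16A3 window that holds it is shown because the level of SLC16A3 varied with those of the genes above, on the plus strand 5′ to 3′, chr17:82228792-82229091, with the 2 matches in capitals.
SLC16A3: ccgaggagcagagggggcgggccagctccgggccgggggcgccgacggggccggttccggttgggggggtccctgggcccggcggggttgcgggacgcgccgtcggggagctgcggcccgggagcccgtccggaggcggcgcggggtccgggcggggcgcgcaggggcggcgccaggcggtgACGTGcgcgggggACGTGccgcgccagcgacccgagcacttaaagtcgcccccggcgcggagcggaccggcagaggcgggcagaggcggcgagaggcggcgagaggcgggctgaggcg

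Both matches lie on the strand of the gene. Of the 5 genes most like SLC16A3, windows were held for ALDOA, ALDOC and PFKFB4, and the word was in all 3 of ALDOA and the only one of ALDOC, and not in that of PFKFB4. Of the hypoxia targets listed by correlation, CA9 had it in its only window, LDHA and PDK1 in 1 of 2 each, and SLC2A1 not in its only one. A match describes the letters of a window and does not show binding. A window without ACGTG may hold the form GCGTG, which was not searched in any window.

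The genes with the pattern most like SLC16A6 were BTBD1 (r = 0.999), PARN (0.998), NDUFAF2 (0.997), CTNNBL1 (0.997) and GLRX5 (0.996), by the same measure over the 6 libraries and 11597 genes. BTBD1 was listed at 80.4, 76.5 and 77.5 FPKM in the shCTR libraries, against 62.1, 58.6 and 59.4 FPKM in shC8. As for SLC16A6, library 1 was the highest of each group and the groups did not overlap. GLRX5, an iron-sulfur cluster protein of mitochondria, was listed at 72.3, 65.6 and 65.8 FPKM in the shCTR libraries, against 34.8, 28.6 and 27.3 FPKM in shC8. The 6 libraries fall into 2 groups, so these correlations largely describe a gene's difference between them. With the group means taken out, the 5 correlations lay between 0.908 and 0.982. The 5 genes were picked for the highest correlation over these same libraries, so that range largely follows from the choice and is no separate support.

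The 8 lists of genes that handle the same compounds or bind the same partners held 74 genes, of which 73 were found in the table and 51 tested. Of the 51, 5 rose, 3 fell and 43 did not pass. That is 15.7% called, beside 12.1% of all tested genes, and their median difference was 0.05 beside 0.04 on the log2 scale. With the replicate block 20 of the 51 were called, beside 26.6% of all tested genes.

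Of the sodium-coupled and mitochondrial carriers 2 were tested. MPC2, a subunit of the mitochondrial pyruvate carrier listed under its older symbol BRP44, was at 29.3, 30.7 and 30.8 FPKM in the shCTR libraries, against 16.5, 16.7 and 17.5 FPKM in shC8. The groups lay far apart for MPC2, which fell by 0.80 (log2 units, SE 0.06, limma adjusted p = 0.00101). Its partner subunit MPC1, listed as BRP44L, had a log2 difference of -0.08 and did not pass (limma adjusted p = 0.680), and the difference between the subunits was not tested.

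Of 15 tested enzymes of lactate and pyruvate, 1 rose, 2 fell and 12 did not pass, where 12.1% of all tested genes were called. With the replicate block 6 were called, beside 26.6% of all tested genes. DLD, the shared dehydrogenase subunit of the pyruvate dehydrogenase complex and related complexes, was listed at 66.6, 63.1 and 69.0 FPKM in the shCTR libraries, against 45.2, 42.5 and 43.0 FPKM in shC8. It fell by 0.59 (log2 units, SE 0.06, limma adjusted p = 0.00275), and the call held with each library left out. PDHB, a subunit of the pyruvate dehydrogenase component, fell by 0.34 (limma adjusted p = 0.0354), and PC, which carboxylates pyruvate, rose by 0.49 (limma adjusted p = 0.0362). These 2 calls were less steady: of the 6 fits leaving out 1 library, PDHB passed only without shC8 1 (limma adjusted p = 0.0240, otherwise up to 0.110) and PC only without shCTR 2 (0.0498, otherwise up to 0.116). PC also missed the threshold after quantile normalization (limma adjusted p = 0.0501). LDHA, which makes lactate from pyruvate, was at 1222, 1641 and 1196 FPKM in the shCTR libraries, against 1229, 1899 and 1625 FPKM in shC8 and did not pass (limma adjusted p = 0.470).

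Of 5 tested ketone body genes only AACS was called, where 12.1% of all tested genes were. AACS, which activates acetoacetate for lipid synthesis, was called higher by 0.30 on the log2 scale (limma adjusted p = 0.0424). That call was lost with each of the 6 libraries left out in turn (limma adjusted p from 0.0695 without shCTR 3 to 0.122 without shC8 2) and under both other scalings (0.0600 and 0.0663). OXCT1, the enzyme that starts ketone body use, had a log2 difference of 0.00 and a 95% confidence interval of -0.21 to 0.21.

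Of 4 tested taurine genes, both tested transporters rose and neither enzyme, CSAD nor ADO, passed, where 12.1% of all tested genes were called. SLC6A6, the sodium-coupled taurine transporter, was listed at 14.0, 11.8 and 12.5 FPKM in the shCTR libraries, against 18.9, 19.2 and 17.7 FPKM in shC8. It rose by 0.51 (log2 units, SE 0.08, limma adjusted p = 0.00936). SLC36A1, a proton-coupled carrier of small amino acids, was at 2.35, 2.18 and 2.31 FPKM in the shCTR libraries, against 4.20, 3.94 and 4.30 FPKM in shC8. It rose by 0.65 (SE 0.08, limma adjusted p = 0.00411). The groups of both were apart, and both calls held with each library left out.

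No gene passed among 8 tested genes of carnitine and creatine handling, 6 of the basigin family and its partners, or 9 of glucose entry and acid handling, although 3, 2 and 3 of them did with the replicate block, under which 26.6% of all tested genes passed. The most abundant of each list were ALDH9A1 (log2 difference -0.11), the basigin ligand PPIA (0.05) and HK1, which traps glucose in the cell (-0.10). NPTN, a close relative of BSG, had a log2 difference of 0.33 that did not pass (limma adjusted p = 0.0985) and passed with the block (limma adjusted p = 0.00556) or without shC8 1 (limma adjusted p = 0.0466).

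**Figure D5:**
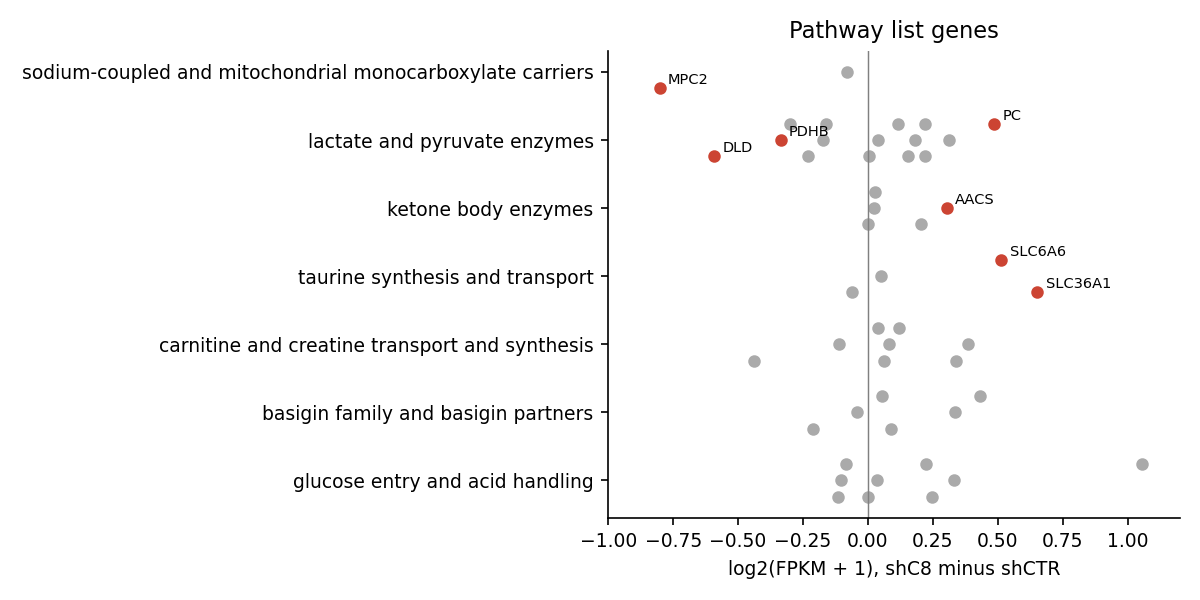
Difference in log2(FPKM + 1), shC8 minus shCTR, for 49 tested genes of 7 lists, 1 point per gene, with the 7 called genes in red and named. MPC2 and DLD lie lowest of the called genes at -0.80 and -0.59, and SLC36A1 and SLC6A6 highest at 0.65 and 0.51.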

How the data were processed

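RNA from U87 cells was sequenced as 6 stranded, ribosome-depleted libraries, per the labels' protocols. The authors deposited 1 FPKM value per gene symbol and library. The submitters' processing notes name TopHat, Cufflinks, Cuffdiff and hg38, with neither versions nor roles. FPKM is relative to a library total and reads of near-identical genes may be shared out between them, so no count model was run and a value of 0 can be a failed estimate.

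Genes averaging 1 FPKM or more were tested on log2(FPKM + 1) with limma 3.58.1 in R 4.3.3 (two-sided moderated test, mean trend, Benjamini-Hochberg over 11598 genes, called under 0.05), and scripts were tested on simulated data. Folds are ratios of mean FPKM. Sequences and figures used Python 3.11.15. The genes of the set, the lists and the rule for named genes (all 9 genes; up to 4 called genes of each list, otherwise its most abundant; CASP8; ARSG; the 5 genes most like SLC16A6) were chosen with earlier results of these data known. Other named genes were chosen after their values were seen. A gene that the rule would name is not reported here, though the counts include it.

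Deviations from the group means had correlations of 0.397, 0.266 and 0.291 between libraries of the same number. Between libraries of different number the correlations lay between -0.32 and 0.04. Deviations within a group cancel out, so these correlations depend on one another. All same-number values exceeded 0.1, so by the data, though by no label, libraries of the same number were taken as linked. The main test has no block, and values with the block stand beside the results whose call or count it changes. Alternatives were a pseudocount of 0.1, no filter, a filter at 5 FPKM, median-of-ratios scaling, quantile normalization, no trend in the moderation, the replicate block, the range of the column numbers as a term, and each library left out.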

Additional observations from a re-analysis of the deposited data

How the results depend on the processing

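SLC16A6, SLC16A1, SLC16A3, SLC16A7 and BSG each kept their direction in all 14 alternatives. With the replicate block, 3086 of the 11598 tested genes (26.6%) were called in place of 1401 (12.1%). Over all tested genes, 1862 were called higher in place of 828 and 1224 lower in place of 573. Of the 5 tested genes of the set, 3 were called higher in place of 1. Of the 51 tested genes of the pathway lists, 14 were called higher in place of 5 and 6 lower in place of 3. The block changed the calls of SLC16A1 and SLC16A3 and no other call within the set. With each library left out in turn, between 477 (without shC8 3) and 1346 genes were called, between 0 and 1 of the set higher (SLC16A1 without shC8 1, adjusted p = 0.0340; 0 genes with any 1 of the other 5 libraries left out), and between 2 and 4 of the pathway lists higher. BSG lost its call and 0 genes of the set were called higher with no filter, quantile normalization, median-of-ratios scaling or the column number range as a term. Quantile normalization called 3 pathway genes higher. The cause of these differences was not tested. Of all calls 59.1% were higher, and 43.1% under median-of-ratios scaling and 49.4% after quantile normalization, with median differences over all genes of 0.04, -0.01 and 0.00 on the log2 scale. Within the lower range of column numbers, whose meaning is not stated, SLC16A6 differed by -2.32, and within the upper range by -2.76. FPKM keeps no depth, so the precision of the genes under 1 FPKM is unknown.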
